A study of Mus musculus with 6 samples.

Results

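The 9 genes described here encode 3 Janus kinases (Jak1, Jak2 and Tyk2) and 6 signal transducers and activators of transcription (Stat2, Stat3, Stat4, Stat5a, Stat5b and Stat6). They were chosen by gene symbol, 9 of the 52550 genes listed in each file, and all 9 passed the filter on low values that left 15265 genes for testing. Their transcripts were measured in plasmacytoid dendritic cells (pDCs) from the spleen of C57BL/6 mice, by mRNA sequencing after culture for 12 hours. All 6 libraries came from cells stimulated with R837 (imiquimod, a small-molecule agonist of the endosomal receptor TLR7). Cells of 3 libraries received R837 only, and cells of the other 3 also received taurine, a sulfur-containing amino acid, whose dose the labels do not give. Unstimulated cells, and cells given taurine without R837, were not analysed here, so each value describes stimulated cells and each difference is taurine on top of R837. Whether the replicates are separate cultures or animals is not stated, and p-values therefore measure the spread between these libraries, which may be technical.

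Cytokine receptors of these families have no enzyme activity of their own. When a cytokine joins its receptor chains, the JAKs bound to the tails of those chains phosphorylate the receptor and then the STATs that dock on it, and the STATs pair, enter the nucleus and bind DNA. The type I interferon receptor, made of IFNAR1 and IFNAR2, works through TYK2 and JAK1, and its main product ISGF3 holds STAT2, IRF9 and a further STAT. In the dendritic cell lineage, FLT3 ligand acts through STAT3 to favour pDC development, while GM-CSF acts through STAT5 to oppose it. STAT activity is set by phosphorylation, which sequencing of RNA does not measure.

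Levels are normalized counts: in each library the authors divided the reads of every gene by a common size factor. The libraries held from 33585080 to 38392654 reads on genes, and the 9 genes took between 4639 reads (Stat4) and 41882 reads (Jak2) in a library, so none was near the limit of detection. Means are given ± SD over the 3 libraries of a group (n = 3). A change is R837 plus taurine minus R837 on the log2(normalized count + 1) scale, ± SE, with p-values from limma adjusted by the Benjamini-Hochberg method over all tested genes, and a gene was called at an adjusted p under 0.05. The pDC label was checked against 15 marker genes, all of which were tested, and 2 of them were called higher and 4 lower with taurine, 40% of the list against 6.41% of all tested genes. The lower ones were Runx2 (-0.60, adjusted p = 0.00415), Tcf4 (-0.51, 0.0137), Pacsin1 (-0.38, 0.0206) and Klk1 (-0.35, 0.0355), and the higher ones were Cox6a2 (0.55, 0.0280) and Bst2 (0.38, 0.0240, all adjusted p from limma). Bst2 is also counted in the list of ISGF3 targets given further on. Runx2 and Tcf4 encode transcription factors of the pDC lineage, and the part of these marker changes in the results was not tested. Among the uncalled markers, Siglech, a pDC surface lectin, lay between 10336 and 13384 in the 6 libraries. Irf8, a transcription factor that pDCs need, had 101959 to 105432 with R837 and 106992 to 108289 with taurine, with no overlap (0.062). The groups also did not overlap for Ccr9 (-0.48, adjusted p = 0.0892) and Ly6d (0.21, adjusted p = 0.0625, both limma). Ptprc (-0.47), Tlr9 (-0.23) and Spib (-0.031) had negative changes and Tlr7 (0.36) and Ly6c2 (0.11) positive ones, all with overlap. Of 5 endothelial cell markers 3 were tested, and 2 were called lower with taurine. Kdr went from 68334 ± 6419 to 50025 ± 1764 (-0.45, adjusted p = 0.0145) and Cdh5 from 16473.5 ± 1593 to 11677 ± 399.7 (-0.49, adjusted p = 0.0136, both limma). Pecam1 (-0.19) was not called and overlapped, Tie1 was at 0 in every library, and Tek was above 0 in a single library. The part of these endothelial marker changes in the results was not tested. On the first principal component (29.0% of the variance), R837 replicate 3 (-12.8) lay nearer to the taurine libraries (29.6 to 43.5) than the other R837 replicates (-43.8 and -47.6).

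Of the 9 genes, 1 was called, Stat4, which rose with taurine. Over all 15265 tested genes 6.41% were called (3.75% higher and 2.66% lower), and 1 gene of 9 is too few to set apart from that share. An unadjusted p under 0.05 was reached by 3 of the 9 (Stat4, Stat3 and Stat5a), against 23.7% of all tested genes, and a change above 0 by 6 of the 9, against 48.6%. The median log2 change of the 9 genes was 0.085 and their median absolute change 0.117, against -0.011 and 0.246 over all tested genes. The groups did not overlap for 3 of the 9 (Stat4 and Stat3 higher, Stat6 lower), against 29.6% of all tested genes.

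**Figure D1:**
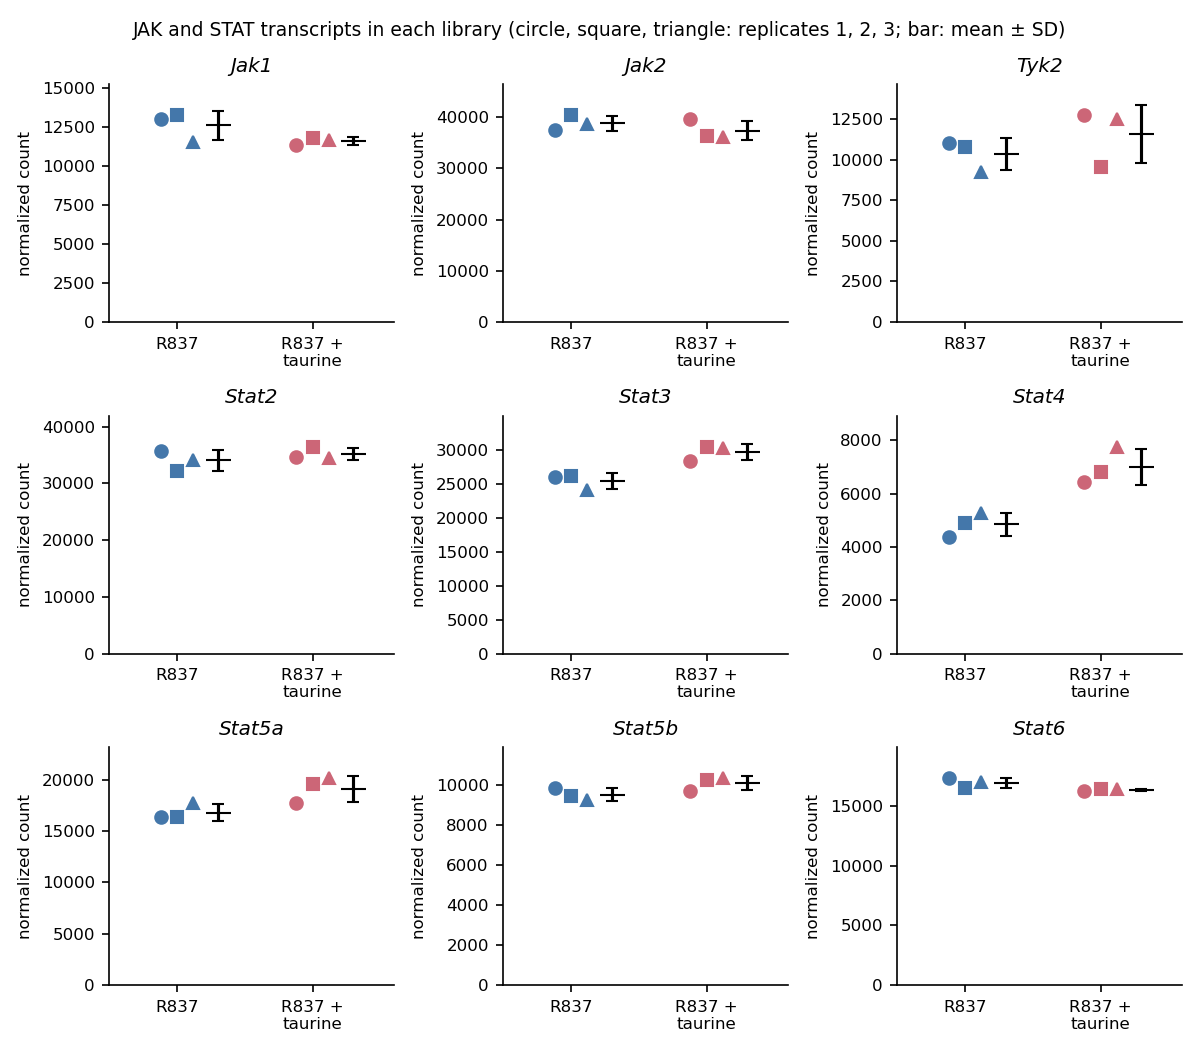
Normalized counts of the 9 genes in each library, with a panel per gene, a linear axis from 0, and R837 libraries at the left and R837 plus taurine libraries at the right of each panel. Circles, squares and triangles are replicates 1, 2 and 3, which are not paired, and bars give the mean ± SD (n = 3). Stat4 shows the widest separation of the groups, from 4842 ± 440.4 to 6994 ± 675, and Tyk2 the widest spread within a group relative to its mean.

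STAT4 is the STAT through which IL-12 signals, and it also answers type I interferon. It is best known in T and NK cells. Stat4 (ENSMUSG00000062939.11, mm10 chromosome 1, 51987148 to 52107189, plus strand) had normalized counts of 4377, 4897 and 5252 in R837 replicates 1, 2 and 3. With taurine it stood at 6443, 6792 and 7748. All 3 taurine libraries were above all 3 R837 libraries, and the lowest taurine value exceeded the highest R837 value by more than the SD of either group. The mean went from 4842 ± 440.4 to 6994 ± 675 (n = 3), which is 44.4% higher, with a log2 change of 0.53 ± 0.10 (95% confidence interval 0.31 to 0.75, adjusted p = 0.0193, limma). In bulk RNA, more cells of a type and more RNA per cell cannot be told apart.

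The call of Stat4 depended on single libraries, although its change kept its direction in each analysis run. Leaving out 1 library at a time gave log2 changes between 0.45 and 0.59. The adjusted p (limma) was 0.0637 without R837 replicate 1, 0.0763 without R837 replicate 2, 0.0576 without taurine replicate 2 and 0.0691 without taurine replicate 3, and it stayed under 0.05 without R837 replicate 3 (0.0137) or taurine replicate 1 (0.0431). Of 12 other analyses, 11 kept the call, among them edgeR on the recovered reads (0.54, adjusted p = 0.0209) and DESeq2 (0.53, adjusted p = 6.13e-05). The exception was limma run with no abundance trend (adjusted p = 0.12), which called 4 genes in the whole table. Deviations of a library from the gene means were related to exon length, with a Spearman correlation across genes of 0.044 to 0.15 in the R837 libraries and of -0.20 to -0.10 in the taurine libraries. On values freed of these length trends and of GC trends, the change of Stat4 was 0.62 (adjusted p = 0.0137, limma).

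**Figure D2:**
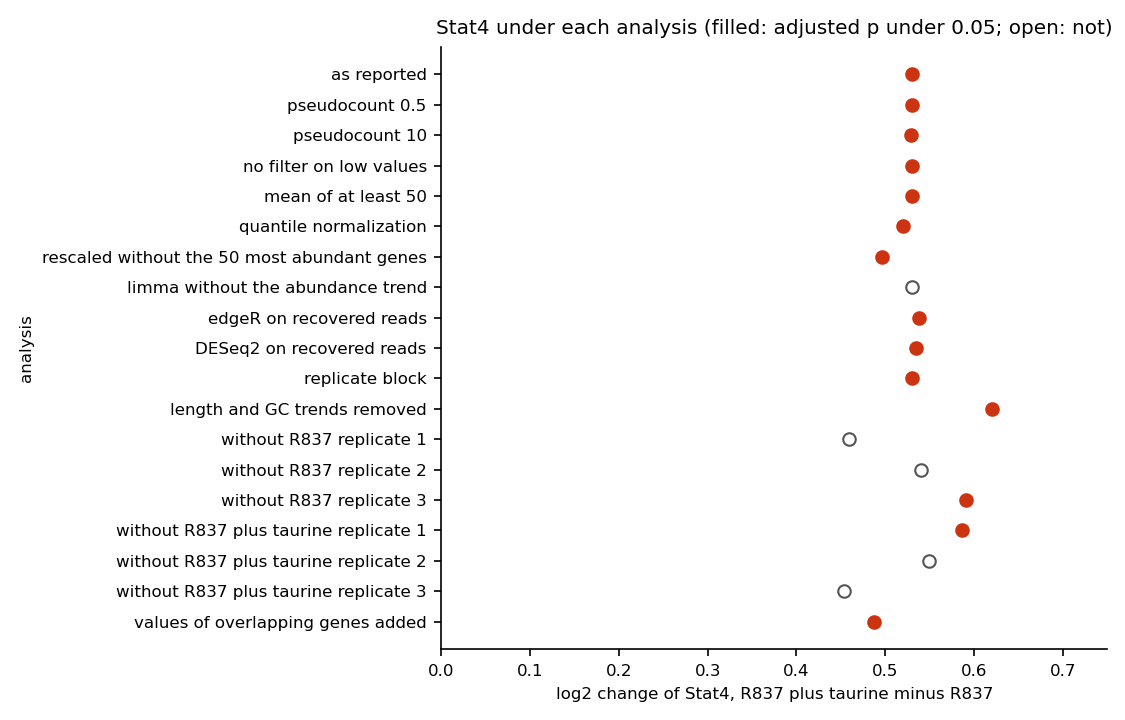
Log2 change of Stat4 (R837 plus taurine minus R837, x axis) in each analysis (y axis), with filled points where the adjusted p was under 0.05 and open points where it was not. All points lie between 0.45 and 0.62, and 4 of the 5 open points come from leaving out 1 library.

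Part of the Stat4 locus is shared with another gene. Gm28177, a processed transcript on the same strand, overlaps 1033 bases or 26.7% of the exon length of Stat4, and 840 of the 3871 words of 50 bases in the Stat4 transcripts (21.7%) also occur in it. Gm28177 itself had 283, 250.3 and 421 normalized counts with R837 and 32.3, 470 and 224 with taurine, which is at most 421 beside Stat4 levels of 4377 to 5252 in the R837 libraries and at most 470 beside 6443 to 7748 in the taurine libraries. With both genes added, the values were 4660, 5147 and 5673 with R837 and 6476, 7262 and 7972 with taurine. The groups still did not overlap, and the log2 change was 0.49 with an adjusted p of 0.0288 (limma).

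Stat4 is abundant in T and NK cells, so the markers of these cells are given beside it. Only 2 of 7 T cell markers passed the filter, none was called, and the summed level of all 7 was 280.1 to 404 in the R837 libraries and 283 to 418 in the taurine libraries. Most of that sum came from Cd28 (201 to 336 in the 6 libraries) and Lck. Lck had 38.7, 61.6 and 62.5 with R837 and 73.7, 116 and 65.8 with taurine, with no overlap between the groups (0.63, adjusted p = 0.29, limma). Cd3d and Cd3g, which encode chains of the T cell receptor complex, were at 0 in every library, and Cd3e was above 0 in a single library, at 8.08. Among NK cell markers 2 of 7 passed, none was called, and their sum was 1245 to 1950.0 with R837 and 1052 to 1230.3 with taurine, most of it from Klrd1, while Klrb1c stood at 21.2 to 54.7. Gzma and Prf1, the granzyme and perforin genes of killer cells, were at 0 in every library. B cell markers summed to 1561 to 2676 and 1708 to 2461, with 0 of 6 tested markers called. Plasma cell markers summed to 450.5 to 514 with R837 and 349 to 493 with taurine, with 0 of 3 tested markers called. Most of that sum came from Sdc1, which was lower with no overlap (-0.35, adjusted p = 0.207, limma). The NK sum was lower in the taurine libraries and the T cell sums overlapped, and the part of these cells in the Stat4 result was not tested.

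STAT3 carries the signals of IL-6, IL-10 and FLT3 ligand. Stat3 (ENSMUSG00000004040.16, chromosome 11, 100885098 to 100939540, minus strand) read 26025, 26215 and 24098 with R837 and 28316, 30435 and 30340.3 with taurine. The groups did not overlap, and the mean went from 25446 ± 1171 to 29697 ± 1197, 16.7% higher. The log2 change of 0.22 ± 0.06 (95% interval 0.084 to 0.36) had an adjusted p of 0.0662 (limma) and was not called. Over the alternatives the adjusted p lay between 0.0125 and 0.225, and the gene passed in 2 of 18: DESeq2 (0.23, adjusted p = 0.0312) and limma on values freed of each library's length and GC trends (0.29, adjusted p = 0.0125). Quantile normalization gave the smallest change, 0.14.

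STAT5A and STAT5B are close relatives that carry the signals of GM-CSF, IL-3, IL-2 and IL-7. Stat5a (ENSMUSG00000004043.14, chromosome 11, 100859351 to 100885169, plus strand) had 16331, 16332 and 17749 normalized counts with R837 and 17725, 19568 and 20127 with taurine. R837 replicate 3 lay above taurine replicate 1, so the groups overlapped, and the change of 0.19 ± 0.07 (95% interval 0.027 to 0.35) had an adjusted p of 0.15 (limma). Its neighbour Stat5b (ENSMUSG00000020919.11, chromosome 11, 100780731 to 100850724, minus strand) had 9850.0, 9425 and 9265 with R837 and 9703, 10253 and 10316 with taurine. These groups overlapped too, with a change of 0.085 ± 0.063 (95% interval -0.059 to 0.23, adjusted p = 0.458, limma). The interval leaves room for a small fall as well as for a rise.

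Stat5b, Stat5a and Stat3 lie next to each other on chromosome 11. Stat5a and Stat3 run tail to tail and share 72 bases of exon on opposite strands, so at their ends reads cannot be assigned without strand information; the sum of both genes changed by 0.21 (adjusted p = 0.0630, limma). Stat5a and Stat5b share sequence instead: 608 of 7407 words of 50 bases in Stat5a (8.21%) and 608 of 5535 in Stat5b (10.98%) occur in the other gene. Their longest identical stretch is shown because a read that falls wholly within it fits both genes. It is 324 bases long, of which the first 120 are printed, and lies inside the longest reading frame of both, from transcript position 904 to 1227 in Stat5a and from 1058 to 1381 in Stat5b (GENCODE M21):
Stat5a and Stat5b, start of the identical stretch: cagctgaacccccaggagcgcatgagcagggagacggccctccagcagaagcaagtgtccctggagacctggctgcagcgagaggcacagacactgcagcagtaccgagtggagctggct

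The split of reads between Stat5a and Stat5b is therefore uncertain in part. Their sum does not depend on the split where each shared read was counted once. Shared reads that were dropped or counted in both genes would alter the sum, and the counting tool is not given. Summed, Stat5a and Stat5b had 26181, 25757 and 27014 normalized counts with R837 and 27429, 29821 and 30442 with taurine. The summed values did not overlap between the groups, and their change of 0.15 was not called (adjusted p = 0.176, limma). Per kilobase of exon, Stat5a stood at 1.37 ± 0.10 times Stat5b with R837 and at 1.47 ± 0.05 times with taurine. This ratio overlapped between the groups.

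STAT2 is the STAT that is specific to interferon signalling and brings the activation domain to ISGF3. Stat2 (ENSMUSG00000040033.16, chromosome 10, 128270559 to 128292849, plus strand) was the second most abundant of the 9 genes, with 35802, 32243 and 34109 normalized counts with R837 and 34711, 36433 and 34475 with taurine. The groups overlapped, and the change was 0.049 ± 0.060 (95% interval -0.087 to 0.19, adjusted p = 0.673, limma). Quantile normalization gave -0.045. STAT6 carries the signals of IL-4 and IL-13. Stat6 (ENSMUSG00000002147.18, chromosome 10, 127642986 to 127660957, plus strand) had 17346, 16505 and 17015 with R837 and 16303, 16470.4 and 16453 with taurine. All taurine values were below all R837 values, though replicate 2 of the groups nearly touched (16505 and 16470.4), and the taurine libraries were close together (16409 ± 92.1). The change of -0.047 ± 0.056 (95% interval -0.17 to 0.079, adjusted p = 0.661, limma) was not called.

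The 3 kinases showed no called change. JAK1 serves all interferon receptors and most receptors of the IL-2, IL-6 and IL-10 families. Jak1 (ENSMUSG00000028530.14, chromosome 4, 101152367 to 101265282, minus strand) had 12996, 13222 and 11546 normalized counts with R837 and 11322, 11767 and 11676 with taurine. R837 replicate 3 lay among the taurine libraries, and the change was -0.12 ± 0.07 (95% interval -0.28 to 0.044, adjusted p = 0.358, limma). With the trends on length and GC taken out it came to 0.0072.

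JAK2 serves the receptors of GM-CSF, IL-3 and IL-12 and the interferon gamma receptor. Jak2 (ENSMUSG00000024789.12, chromosome 19, 29251828 to 29313080, plus strand) had 37387, 40316 and 38647 with R837 and 39569, 36281 and 36208 with taurine. Taurine replicate 1 stood above 2 of the R837 libraries, and the change was -0.055 ± 0.060 (95% interval -0.19 to 0.082, adjusted p = 0.635, limma), or 0.057 with the length and GC trends removed. TYK2 sits on IFNAR1 and on the shared chain of the IL-12 and IL-23 receptors. Tyk2 (ENSMUSG00000032175.11, chromosome 9, 21104068 to 21131243, minus strand) had 11050.1, 10779 and 9240.0 with R837 and 12740.1, 9541 and 12523 with taurine. Taurine replicate 2 fell below 2 of the R837 libraries while the other 2 taurine libraries were the highest of the 6. This gave the largest spread of any of the 9 genes within a group (a coefficient of variation of 15.4% with taurine) and a change of 0.16 ± 0.12 whose 95% interval ran from -0.12 to 0.43 (adjusted p = 0.477, limma). Without strand information Tyk2 reads also cannot be told from those of the antisense gene 1700084C06Rik, which overlaps 8.07% of its exon length and had 266 to 476 normalized counts. With both added the change was 0.13 (adjusted p = 0.542, limma).

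**Figure D3:**
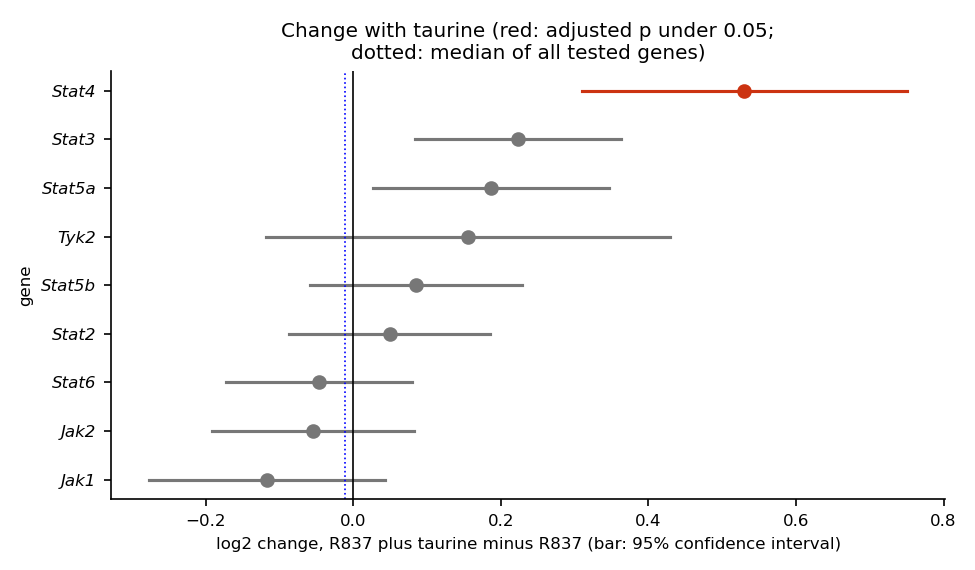
Log2 change of each gene with taurine (x axis, R837 plus taurine minus R837) with its 95% confidence interval as a bar, ordered by size. The dotted line is the median of all 15265 tested genes (-0.011), the called gene Stat4 is in red, and the intervals of Stat4, Stat3 and Stat5a lie above 0.

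Levels can be compared between genes only per length. Exon length here is the union of all annotated exons of a gene, so the order depends on the annotation. Per kilobase of exon, Jak2 was the highest, at 7710.4 ± 292 normalized counts with R837 and 7426 ± 382 with taurine. Stat2 followed at 5746 ± 300.5 and 5941 ± 180.4, then Stat6 at 3852 ± 96.3 and 3728 ± 20.9, Stat3 at 2671 ± 123 and 3117 ± 126, and Stat5a at 2356 ± 115 and 2683 ± 176. These 5 genes held the same order in both groups, and the libraries of neighbours in it did not overlap. The lower 4 were close together. With R837 alone they were Jak1 (1742 ± 126), Stat5b (1718 ± 54.6), Tyk2 (1509 ± 142) and Stat4 (1251 ± 114), where Jak1 overlapped Stat5b and Tyk2 overlapped Stat4. With taurine their order was Stat5b (1822 ± 60.8), Stat4 (1806 ± 174), Tyk2 (1689.9 ± 260.4) and Jak1 (1603 ± 32.6), and each overlapped the next. Stat4 thus had the lowest mean of the 9 per length with R837 alone, where it overlapped Tyk2, and it overlapped Stat5b and Tyk2 with taurine. Of its exon length 26.7% is shared with Gm28177, and how reads there were counted is not known, so this rank is uncertain. The level of Stat4 per kilobase was 0.22 ± 0.03 times that of Stat2 with R837 and 0.30 ± 0.03 times with taurine, with no overlap between the groups.

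**Figure D4:**
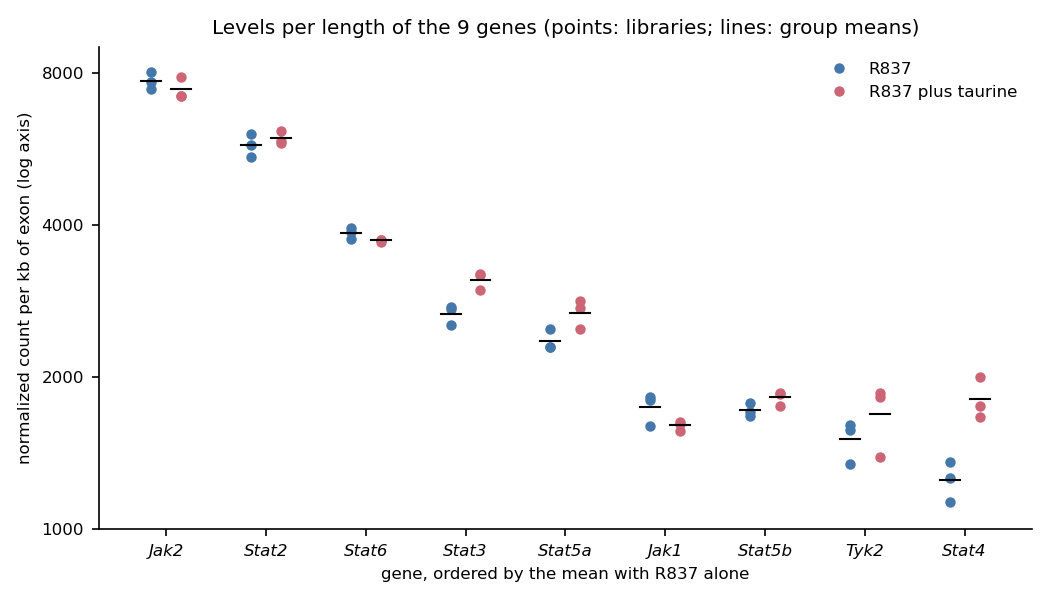
Normalized count per kilobase of exon (y axis, log scale) of the 9 genes, ordered by their mean with R837 alone, with a point per library and lines at the group means. Jak2 is highest in both groups, and the mean of Stat4 is lowest with R837 alone (1251) and level with that of Stat5b with taurine (1806 and 1822).

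Across the 6 libraries some of the 9 genes varied together, which is given as a description because the libraries also share their group and depth. Pearson's r of the log2 values was 0.93 between Stat4 and Stat5a, 0.90 between Stat3 and Stat5b and 0.83 between Stat3 and Stat4, and it was -0.85 between Stat5b and Jak2 and -0.74 between Stat4 and Stat6. The search covered 9662 tested genes with a mean of at least 100, leaving out symbols of predicted, clone or mitochondrially encoded genes. Among the genes searched, the one most like Stat4 was Ccng2, which encodes cyclin G2 (r = 0.996, 6 libraries). Ccng2 was itself higher with taurine (log2 change 0.41, adjusted p = 0.0428, limma). The genes most like Stat3, Stat5a, Stat5b and Stat2 were Tmem50a (0.992), Tnni2 (0.994), Ubac2 (0.992) and Clpb (0.962). For Stat6, Jak1, Jak2 and Tyk2 they were Sec11a (0.995), Copa (0.996), Mrps33 (0.981) and Kpna1 (0.978). Each was picked as the highest r among all genes searched and carries no test.

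Several STAT genes are known to lie downstream of interferon themselves, so the promoters of the 9 were read from RefSeq (GRCm38.p6). All 9 genes matched, with 12 start sites in all, and windows from 250 bases before to 50 bases after each start were searched on both strands. The ISRE, the element that ISGF3 binds, was searched as GAAA, any 2 bases, and GAAA again. It occurred in 2 of the 12 windows, those of Stat2 and of the second start of Stat4, and in 3.44% of 32851 RefSeq windows of the same length. The GAS element that STAT pairs bind, TTCNNNGAA, occurred in 0 of the 12 and in 8.30% of all windows. A CCAAT box was found in 5 of the 12 windows (of Jak1, Stat2, Stat3, Stat4 and Tyk2) and in 37.4% of all windows. The 250 bases before the start are shown for Stat2 and for both starts of Stat4, with the ISRE match in capitals, because Stat4 is the called gene and these are the 2 genes with a match:
Stat2, chr10:128270248-128270497, plus strand: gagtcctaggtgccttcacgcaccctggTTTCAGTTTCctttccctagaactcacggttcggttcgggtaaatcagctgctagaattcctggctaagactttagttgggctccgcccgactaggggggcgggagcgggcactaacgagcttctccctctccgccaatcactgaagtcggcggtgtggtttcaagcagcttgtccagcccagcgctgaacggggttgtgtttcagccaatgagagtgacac
Stat4 first start, chr1:51986898-51987147, plus strand: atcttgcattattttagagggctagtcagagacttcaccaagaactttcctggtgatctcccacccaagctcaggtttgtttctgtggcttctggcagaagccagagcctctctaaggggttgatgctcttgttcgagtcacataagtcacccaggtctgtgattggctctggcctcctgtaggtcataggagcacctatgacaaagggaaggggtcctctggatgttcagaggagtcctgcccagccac
Stat4 second start, chr1:52007990-52008239, plus strand: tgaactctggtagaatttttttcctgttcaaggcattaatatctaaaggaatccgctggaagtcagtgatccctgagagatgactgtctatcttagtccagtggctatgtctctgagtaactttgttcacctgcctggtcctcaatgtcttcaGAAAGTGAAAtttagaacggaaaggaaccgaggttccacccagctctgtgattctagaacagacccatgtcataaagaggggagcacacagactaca
The match lies at position -222 from the start of Stat2, on the strand opposite to the gene, and at -97 from the second start of Stat4, on the strand of the gene. The first start of Stat4 has none in this window. The values per gene do not tell the starts of Stat4 apart, and a match of letters is not a bound site. Of the 2 genes with a match, Stat4 was called and Stat2, at 0.049, was not.

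The rest of the pathway was read from lists of genes that were chosen with earlier results of these data known, and their counts are to be set beside the 3.75% of all tested genes that were called higher and the 2.66% that were called lower. Among interferon receptors, 0 of 6 were called higher and 1 lower, with a median log2 change of -0.11. The lower gene was Ifnar1, the receptor chain that TYK2 binds. It had 27331, 27823 and 25303 normalized counts with R837 and 20829.9, 21762 and 21345 with taurine, a change of -0.33 ± 0.06 (adjusted p = 0.0188, limma) with no overlap. It kept its call in 10 of 11 other analyses but in only 1 of the 6 that left out a library, where the change lay between -0.37 and -0.30. Ifnar2, the chain that binds JAK1, had 13608 ± 1087 and 13867 ± 859 (0.029, adjusted p = 0.872, limma), and its small change turned negative under 4 of the alternatives. Within this receptor the 2 chains thus had values of -0.33 and 0.029, a difference that was not itself tested.

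Of 25 tested receptors of other cytokines that use JAKs (of 31 listed), 2 were called higher and 1 lower, with a median of 0.13. Lifr, which encodes the LIF receptor, which signals to JAK1 and STAT3, had 1028, 1141 and 888 with R837 and 399.8, 504 and 453 with taurine. The change of -1.17 ± 0.14 (adjusted p = 0.00509, limma) was called in each fit that left out a library. Il3ra, the IL-3 receptor chain that pDCs carry, had 759, 728 and 1046 against 1357, 1425 and 1388. It rose by 0.74 ± 0.14 (adjusted p = 0.0235, limma), and 1 of the 6 fits that left out a library kept the call. Il4ra, whose product signals through JAK1 and STAT6, rose from 3811 ± 57.0 to 4827 ± 368 (0.34, adjusted p = 0.0424, limma), a call that none of those 6 fits kept. The IL-12 receptor chains, named here for their place upstream of STAT4 and not by the naming rule, did not pass: Il12rb1 had 0.48 (adjusted p = 0.114) and Il12rb2 0.19 (adjusted p = 0.395, both limma). Of the Il12rb2 exon length, 40.0% overlaps Serbp1 on the opposite strand, so without strand information its reads may not be fully its own.

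Of 13 tested cytokine genes whose products signal through JAKs (of 21 listed), 4 were called higher and 0 lower, and the list's median was 0.37. Il12b, which encodes the chain shared by IL-12 and IL-23, had 47576, 49063 and 50138.5 with R837 and 56027, 60663 and 61299 with taurine (0.28 ± 0.06, adjusted p = 0.0271, limma). Ebi3 and Il27 encode the 2 chains of IL-27, a cytokine that activates STAT3. Ebi3 went from 30318.5 ± 1718 to 38243 ± 1531 (0.34, adjusted p = 0.0205, limma). Of its exon length, 23.4% overlaps the antisense gene Gm16712, so without strand information its reads may not be fully its own. On values freed of length and GC trends, the change of Ebi3 was 0.20 (adjusted p = 0.0251, limma). Il27 went from 339.9 ± 59.9 to 603 ± 46.8 (0.84, adjusted p = 0.0206, limma), with 10.1% of its exon length overlapping Apobr on the opposite strand. Il15, whose product acts through JAK1 and STAT5, went from 573 ± 57.6 to 935 ± 74.1 (0.71, adjusted p = 0.0157, limma). None of these 4 overlapped between the groups, and each kept its call in 1 or 2 of the 6 fits that left out a library. Of 11 other analyses, Il15 and Il27 kept theirs in 10, and Il12b and Ebi3 in 8. Quantile normalization lost the calls of Il12b (0.22, adjusted p = 0.0532) and Ebi3 (0.25, adjusted p = 0.0654, both limma), as did dropping the filter on low values. Named outside the naming rule for their roles, as Ifng and Irf9 are further on, were Il12a and Ifnb1. Il12a, the other chain of IL-12, was far less abundant and did not pass (169.8 against 173.9, adjusted p = 0.931, limma), and neither did Ifnb1, at 91.0 ± 7.47 and 119 ± 34.1 (adjusted p = 0.475, limma). Conventional dendritic cells also make IL-12 and IL-27, and their 7 markers, all tested, summed to 22949 to 23980 with R837 and 19782 to 20612 with taurine, with 0 called higher and 1 lower (Clec9a). Most of that sum came from Itgax (-0.28, adjusted p = 0.0501, limma), which was lower with no overlap, and Sirpa (-0.21), which overlapped. Batf3 had 135 to 171.8 and 179.0 to 264 with no overlap (0.54, adjusted p = 0.158, limma). Zbtb46 (0.12), Cd209a (-0.60) and Xcr1 (-0.00093) were uncalled, with overlap. Monocyte and macrophage markers summed to 6953 to 7191 with R837 and 6753 to 8453 with taurine, with overlap. Of 6 tested 1 was called, Fcgr1, which is also induced by interferon (0.86, adjusted p = 0.00977, limma). Among the uncalled ones, Adgre1 (-0.45, adjusted p = 0.0880) and Cd14 (-0.22, 0.207) were lower and Csf1r (0.11, 0.572, all limma) higher, each with no overlap. Lyz2 (0.11) and Vcan (0.0064) had positive changes with overlap. Neutrophil markers summed to 1172 to 1707 with R837 and 1717 to 2079 with taurine, with Ngp called higher of 7, and erythroid markers to 85.9 to 126 and 162 to 239, with Hba-a1 called higher of 4. The neutrophil and erythroid sums were higher in the taurine libraries with no overlap, though the neutrophil sums nearly touched (1707 and 1717). Of the other neutrophil markers, S100a8, S100a9, Elane and Mpo had positive changes and Ltf (-0.10) and Camp (-0.57) negative ones. All of these were uncalled, with overlap between the groups. The part of these cell types in the cytokine results was not tested.

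**Figure D5:**
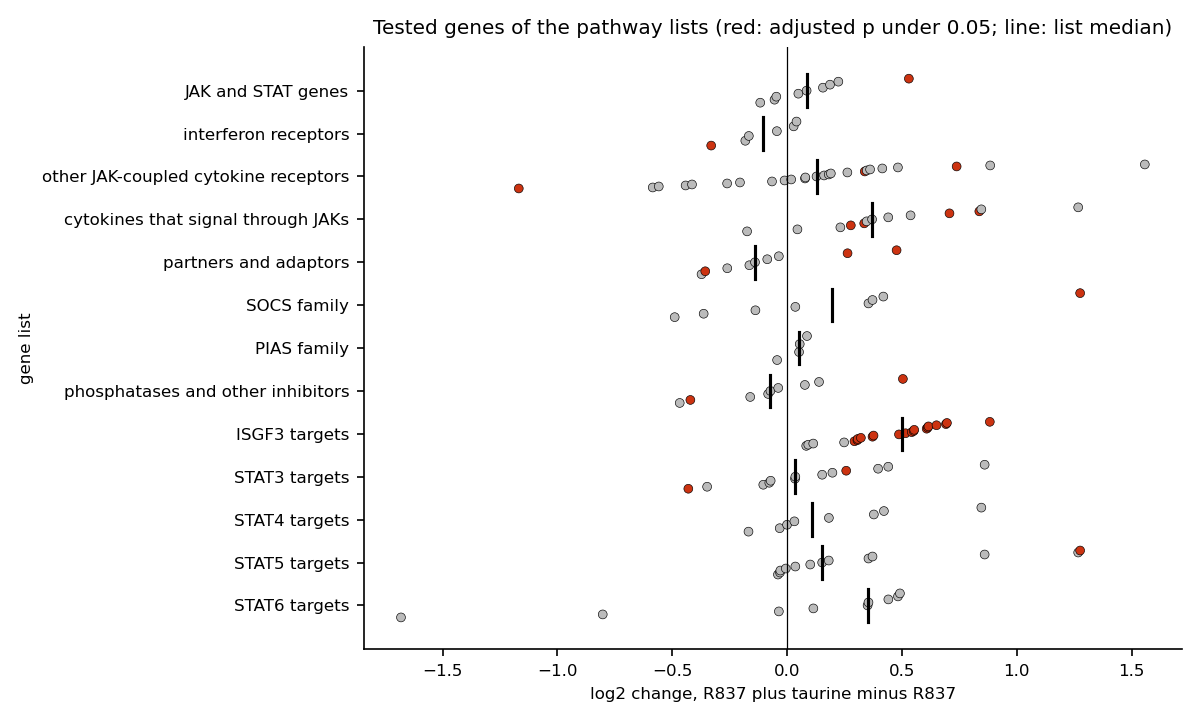
Log2 change with taurine (x axis) of each tested gene of the JAK and STAT genes and of 12 lists of the pathway (y axis), with called genes in red and the median of each list as a vertical line. Called genes are most numerous among the ISGF3 targets (18 of 22) and absent from the PIAS family and the STAT4 and STAT6 targets.

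Among the inhibitors of the pathway, the SOCS family are proteins that STATs induce and that bind JAKs or receptors in feedback. Of its 8 members 1 was called higher and 0 lower, with a median of 0.20. That gene was Cish, a classic STAT5 target, with 419, 476 and 421 with R837 and 1904, 792 and 791.9 with taurine. Taurine replicate 1 stood far above the other 2, and the change of 1.28 ± 0.31 (adjusted p = 0.0449, limma) was 0.85 without that library, where the call held (adjusted p = 0.0325). It was lost without any 1 of the other 5 libraries, and 8 of 11 other analyses kept it. Socs3, the STAT3-induced member and the most abundant of the rest, had 10281 ± 476 and 10532 ± 70.6 (0.036, adjusted p = 0.779, limma), a change that turned negative under 3 alternatives, quantile normalization among them. Of 4 PIAS genes, SUMO ligases that restrain STATs, 0 were called, with Pias1 at 0.052 (adjusted p = 0.783) and Pias4 at 0.087 (adjusted p = 0.656, both limma).

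Of 9 phosphatases and other inhibitors, 1 was called higher and 1 lower. Usp18, an interferon-induced protein that displaces JAK1 from IFNAR2, had 15381, 13040.4 and 13154 with R837 and 19468, 19541 and 19785 with taurine. It rose by 0.50 ± 0.08 (adjusted p = 0.0112, limma), and 4 of the 6 fits that left out a library kept the call. Cbl, a ubiquitin ligase that marks activated kinases and receptors for breakdown, went from 11966 ± 1509 to 8888 ± 157 (-0.42, adjusted p = 0.0352, limma). That call was kept by 1 of the 6 fits that left out a library, and with length and GC trends taken out the change was -0.24 (adjusted p = 0.0682). Of 9 partners and adaptors, 2 were higher and 1 lower. Hsp90ab1, a chaperone whose clients include JAKs, rose by 0.26 (adjusted p = 0.0243), Nmi, a STAT-binding protein, rose by 0.48 (adjusted p = 0.0247), and Ep300, a histone acetyltransferase that STATs recruit, fell by 0.36 (adjusted p = 0.0287, all limma). The fits that left out a library kept 1, 2 and 1 of 6 of these calls in turn, quantile normalization gave 0.12 for Hsp90ab1 (adjusted p = 0.169), and Ep300 came to -0.23 (adjusted p = 0.0614) on values freed of length and GC trends. Irf9, the DNA-binding partner of STAT2, had means of 8217 and 7739 (-0.086, adjusted p = 0.436, limma), so neither Stat2 nor Irf9 was called. The groups did not overlap for Irf9, with 8122 to 8396 with R837 and 7601 to 7910 with taurine.

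The genes that ISGF3 is known to drive were higher in number: 18 of 22 were called higher and 0 lower, with a median of 0.50. The 4 with the smallest p were Cmpk2, Mx1, Irf7 and Isg15, with changes of 0.88, 0.55, 0.65 and 0.61 (adjusted p from 0.00238 to 0.00370, limma), and each of them kept its call without any 1 library. The 4 that did not pass, named after their values were seen, were Xaf1 (0.25, adjusted p = 0.0599), Oasl2 (0.11, 0.374), Trim30a (0.092, 0.631) and Oas2 (0.083, 0.907, all adjusted p from limma). This list was known from earlier results of these data to be higher, so the count describes it and adds no independent support.

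Lists of targets of the other STATs, which other factors drive as well, held few called genes. Of 13 tested STAT3 targets 1 was higher and 1 lower, with a median of 0.036: Junb, an AP-1 factor, went from 14883 ± 585 to 17787 ± 641 (0.26, adjusted p = 0.0449, limma), and Myc went from 4063 ± 355 to 3008 ± 42.8 (-0.43, adjusted p = 0.0244, limma). Each kept its call in 1 of the 6 fits that left out a library, and Junb passed in 5 and Myc in 9 of 11 other analyses. Of 8 STAT4 targets 0 were called, with a median of 0.11. The most abundant were Furin, a protease gene (22616 ± 643 and 22127 ± 1062), and Map3k8, a kinase gene (2390 ± 401.5 and 2474 ± 642), and Ifng, the best known target, was nearly unexpressed at 31.0 and 39.2. Of 13 STAT5 targets 1 was called, Cish as above, while the abundant Ccnd2, which encodes cyclin D2, had 71794 ± 4786 and 71415 ± 1619 (adjusted p = 0.971, limma). Of 9 tested STAT6 targets 0 were called, with a median of 0.35. That median is the value of Arg1, a gene near the floor (means of 7.93 and 11.9, SE 1.54). The changes of the list ran from -1.68 (Fcer2a) to 0.49 (Tgm2). Ccl22, a chemokine gene, had 73871 ± 5927 and 79968 ± 6621 (0.11, adjusted p = 0.427), and Socs1 had 1615 ± 154 and 2059 ± 67.5 (0.35, adjusted p = 0.0656, both limma) with no overlap between the groups.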

How the data were processed

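Per the labels' protocols, Trizol was used to extract RNA and a VAHTS kit to build the mRNA libraries. The submitters' processing notes list HISAT2 and StringTie, and mm8 as well as mm10 as builds, without a role or version. Of 52403 gene identifiers shared with GENCODE M21 (mm10), 95.2% had the same coordinates, so positions are given as mm10. The deposited signal values, called normalized counts per the file headers, are read numbers that were divided by a size factor (0.942 to 1.06, common to all genes of a library), and 100% of values came out whole to within 0.001 of a read. The counting tool is not given in the sources used here, nor is its strand setting.

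Genes that reached a normalized count of 10 in 3 or more libraries were tested on log2(normalized count + 1) with limma 3.58.1 in R 4.3.3 (1 group term, empirical Bayes with an abundance trend, two-sided, Benjamini-Hochberg over all 15265 genes, no replicate block). A log2 change on this scale understates the change of genes with few reads. The code was tested on simulated data. Alternatives were other pseudocounts, filters and scalings, limma without the trend, edgeR 4.0.16 and DESeq2 1.42.0 on recovered reads, a replicate block, removal of length and GC trends (mgcv), overlapping genes added, and each library left out. Replicates of a group differed by more than sampling noise. The 9 genes and the lists were chosen with earlier results of these data known, and other members of the 2 families are not reported here. All 9 genes are named. Of each list, up to 4 called genes with the smallest p are named, or the most abundant genes where fewer than 2 were called. Il12rb1, Il12rb2, Il12a, Ifnb1, Ifng, Irf9, Arg1, Fcer2a, Tgm2, 4 uncalled ISGF3 targets and the cell type markers given were named outside this rule.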

Additional observations from a re-analysis of the deposited data

How the results depend on the processing

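The analysis called 979 genes (573 higher, 406 lower) and 1 of the 9 JAK and STAT genes. The count was 547 with no filter on low values, 1916 with DESeq2 (2 of the 9 called, Stat3 and Stat4) and 4 with limma without the abundance trend (0 of the 9, and 3217 genes at an unadjusted p under 0.05). It was 965 with length and GC trends removed (2 of the 9, again Stat3 and Stat4; 68.6% of calls higher), and 1048 with totals rescaled without the 50 most abundant genes, which put 462 higher and 586 lower (44.1% higher against 58.5%). Leaving out 1 library gave 130 to 1503 called genes and 0 to 1 of the 9. In the R837 group, dropping replicate 1 gave 326, replicate 2 gave 130 and replicate 3 gave 1503; in the taurine group, dropping replicate 1 gave 340.0, replicate 2 gave 253 and replicate 3 gave 155. With the replicate number as a block 615 genes were called, Stat4 among them (adjusted p = 0.0269, limma), and of the named list genes Il4ra, Hsp90ab1, Nmi, Cish, Myc and Junb lost their calls under it. Same-numbered libraries did not deviate together (correlations of -0.0026, -0.0068 and -0.043 across genes), so the numbers were not taken to pair the libraries.

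Of 161 comparisons of the 9 genes with an alternative, 151 kept direction and side of the threshold, 5 lost the call (all Stat4), 2 gained one (Stat3) and 3 reversed: Stat2 under quantile normalization (-0.045) and Jak1 (0.0072) and Jak2 (0.057) with length and GC trends removed. Of 493 comparisons of the 29 named list genes, 365 kept both, 112 lost the call, 1 gained one and 15 reversed, all of uncalled genes with small changes. These were Ifnar2 (quantile -0.033, rescaled -0.0053, and leave-one-out values from -0.040 to 0.066), Socs3 (quantile -0.036, length and GC -0.043, leave-one-out -0.0014 to 0.064), Pias1 (leave-one-out -0.021 to 0.11), Map3k8 (rescaled -0.0021, leave-one-out -0.16 to 0.22) and Ccnd2 (edgeR 0.00035, length and GC 0.15, leave-one-out -0.054 to 0.042). The cause of these shifts was not tested. The spread between replicates exceeded counting error, and the intervals rest on the spread of 3 libraries per group; each of the 9 genes had at least 4639 reads in every library.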
